A study of Homo sapiens with 6 samples.

Results

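The redox and iron storage genes described here are 48 human genes of the NRF2 response, the glutathione and thioredoxin systems, and iron storage and uptake. They were taken by gene symbol from a given list, drawn up with earlier results of these data known, out of 50868 gene rows, and all 48 had a row. Of these, 47 passed the filter on low counts and entered a test of 16536 genes. The exception was SOD3, the secreted superoxide dismutase, with 5, 4 and 6 reads in the siRCC2 libraries and 2, 2 and 5 reads in the siCtrl libraries.

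RNA was sequenced from DU145, an established human prostate cancer cell line. The 3 siRCC2 libraries came from cells given an siRNA against RCC2 (labelled RCC2 knockdown), and the 3 siCtrl libraries from cells given a control siRNA (labelled RCC2 wild type). RCC2 encodes a chromosome condensation regulator family protein. All 6 libraries share this 1 line. The sources used here do not give the siRNA sequences, their number or the time after transfection. Nothing in the labels places the replicates in separate cultures, so the spread behind each p-value may be technical and is that of these libraries alone.

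NRF2, encoded by NFE2L2, is a transcription factor that KEAP1 holds at low levels by directing its destruction. When KEAP1 is modified by oxidants or electrophiles, NRF2 enters the nucleus, pairs with a small MAF protein and binds antioxidant response elements, where BACH1 acts as a repressor. Its classical targets make and reduce glutathione, keep thioredoxin and peroxiredoxins reduced, detoxify quinones, degrade haem and store the released iron in ferritin.

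Total counts were 17377191 to 19895431 in the siRCC2 libraries and 18206357 to 19808215 in the siCtrl libraries, so that 1 CPM (a count scaled to the library's size) stood for 16.5 to 20.2 reads. RCC2 itself had 59.3, 57.6 and 54.8 CPM in siRCC2 libraries, against 198, 194 and 191 CPM in siCtrl libraries, which is -1.76 ± 0.07 on the log2 scale (SE; adjusted p = 2e-05). All CPM here are scaled by edgeR's TMM factors, all fold changes are siRCC2 over siCtrl, and adjusted p-values are from edgeR's quasi-likelihood test after Benjamini-Hochberg adjustment across every tested gene, at a threshold of 0.05. Summed epithelial markers (KRT8, KRT18, EPCAM and CDH1) were 1238 to 1383 CPM in siRCC2 libraries and 862 to 885 CPM in siCtrl libraries. KRT8 and KRT18 made up most of this sum and were higher, as was CDH1, while EPCAM was lower (-0.48 ± 0.12, adjusted p = 0.0181). Leukocyte, endothelial and fibroblast marker sums did not exceed 15.5 CPM in any library. The part of the epithelial marker difference in the results was not tested. In such bulk RNA, fewer cells of a kind and less RNA per cell cannot be told apart.

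The siRCC2 libraries were spread more widely than the siCtrl libraries. On the second principal component, which held 16.4% of the variance, siRCC2 replicates 1, 2 and 3 lay at 35.1, -10.6 and -30.5, and the siCtrl libraries between -3.5 and 4.7. Each library was also set against the mean of the other libraries of its group, by transcript length over all tested genes. For the shortest transcripts (up to 1.82 kb), the median log2 ratio was 0.11, -0.03 and -0.09 in siRCC2 replicates 1, 2 and 3, and -0.04 to 0.02 in siCtrl libraries. For the longest (over 4.77 kb), it was -0.20, 0.04 and 0.12 in siRCC2 replicates 1, 2 and 3, and -0.02 to 0.02 in siCtrl libraries. The part of transcript length in the results was not tested, and values without a library are given where they change a result.

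Of the 47 tested genes, 19 were higher and 9 were lower in siRCC2 cells, and 19 did not pass the threshold. The higher share was 40.4%, against 20.7% of all tested genes, and the lower share was 19.1%, against 21.1%. Since the list was drawn up with results known, these shares are a description of it. So are the counts by role below, each of few genes. With both directions together, 28 genes (59.6%) passed, where 41.8% of all tested genes did. The CPM of the groups did not overlap for 29 of the 47 genes, beside 9155 of all 16536 tested genes (55.4%). Groups without overlap were thus common over all genes, and are given below as a description. For the 47 genes, fold changes were as follows. Their median log2 fold change was 0.26, beside -0.015 over all tested genes, and 32 of 47 genes had a positive value. Without siRCC2 replicate 1 the median was 0.085, with 17 genes higher and 9 lower, while leaving out siRCC2 replicate 3 gave a median of 0.308, with 20 higher and 7 lower. Leaving out siRCC2 replicate 2 gave 14 higher and 4 lower, siCtrl replicate 1 gave 14 and 5, siCtrl replicate 2 gave 15 and 6, and siCtrl replicate 3 gave 13 and 5, with medians of 0.219 to 0.232. Summed over all 48 genes, levels were 24597, 22229.7 and 21194 CPM in siRCC2 libraries and 17669, 17839 and 17239 CPM in siCtrl libraries. The ferritin light chain FTL made up a large part of that sum.

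**Figure D1:**
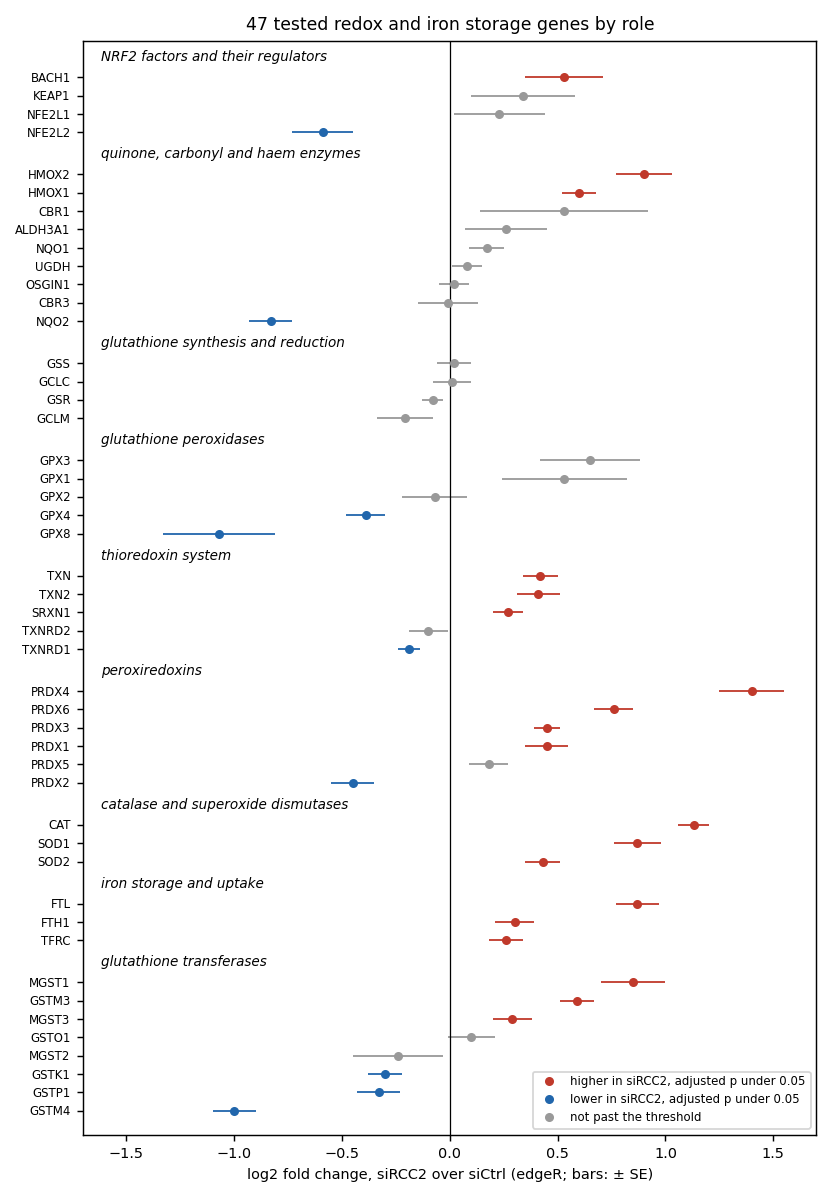
Log2 fold change of siRCC2 over siCtrl for the 47 tested genes, in blocks by role, with points as edgeR estimates and bars as ± SE (3 libraries a group). The peroxiredoxin, catalase and dismutase, and iron blocks lie mainly to the right, with PRDX4 highest at 1.40, and GPX8, GSTM4 and NQO2 have the lowest values at -1.07, -1.0 and -0.83.

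Antioxidant response elements are read in promoters as a short core, TGACNNNGC. In RefSeq promoter windows (250 bases before to 50 after a start, GRCh38.p14), 37 of the 48 genes had at least 1 window. The core stood on either strand in 8 of these 37 genes (CBR1, GCLM, GPX2, GSTO1, GSTP1, KEAP1, MGST1 and TXNRD1). By window, 9 of 54 held it (16.7%), against 13.3% of 35116 windows of all genes. Shown are 4 examples with the core before the start, from genes that were lower (GSTP1 and TXNRD1) or did not pass (GCLM and KEAP1). The core of MGST1, which was higher, lies after its start and is not printed. Each stands on the gene's strand with the core in capitals, given as its reverse complement where the core lies on the other strand.
GCLM, chr1:93909445-93909474 (-): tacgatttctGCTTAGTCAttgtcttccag
GSTP1, chr11:67583736-67583765 (+): gccggcgccgTGACTCAGCactggggcgga
TXNRD1, chr12:104215670-104215699 (+): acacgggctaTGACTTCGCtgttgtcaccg
KEAP1, chr19:10502783-10502812 (-): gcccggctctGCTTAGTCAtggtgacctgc
A match describes letters only, and sequence beyond these windows was not searched, so a gene without a match may hold the core elsewhere. Of the 8 genes with the core, MGST1 was higher, GSTP1 and TXNRD1 were lower, and CBR1, GCLM, GPX2, GSTO1 and KEAP1 did not pass the threshold.

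The NRF2 factors did not move together. NFE2L2 (chromosome 2, 177227595 to 177392697, minus strand, GRCh38) had 65.5, 86.3 and 97.5 CPM in siRCC2 libraries, against 122, 122 and 131 CPM in siCtrl libraries. All siRCC2 libraries lay below all siCtrl libraries, with siRCC2 replicate 1 lowest, and the gene was 1.50-fold lower (log2 fold change -0.59 ± 0.14 SE, adjusted p = 0.0144). This call was lost without siCtrl replicate 3 (adjusted p = 0.0516). Its locus overlaps AGPS on the opposite strand, whose counts were 60.5% of those of NFE2L2, and the sources used here do not say whether the counting used strand. BACH1, the competing repressor, had 55.4, 66.2 and 89.1 CPM in siRCC2 libraries and 49.1, 43.2 and 53.3 CPM in siCtrl libraries. It was higher without overlap (0.53 ± 0.18, adjusted p = 0.0476), a call lost in 8 of 16 alternatives at adjusted p of up to 0.145, including without siRCC2 replicates 2 (0.0663) and 3 (0.0847) and siCtrl replicates 1 (0.112), 2 (0.145) and 3 (0.075). KEAP1, the NRF2 inhibitor, had 138, 103 and 74.8 CPM in siRCC2 libraries and 104, 76.4 and 70.0 CPM in siCtrl libraries, which overlap (0.34 ± 0.24, adjusted p = 0.291). NFE2L1, encoding the related factor NRF1, had 437, 249.9 and 249 CPM in siRCC2 libraries and 265, 268 and 265 CPM in siCtrl libraries. In siRCC2 replicate 1 alone it stood far above the rest, and its log2 fold change was 0.23 ± 0.21 (adjusted p = 0.427) with that library and -0.11 without it.

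Among quinone, carbonyl and haem enzymes, 2 genes were higher (22.2%), 1 was lower (11.1%) and 6 did not pass. Of all tested genes, 20.7% were higher and 21.1% lower. Haem oxygenases cleave haem to biliverdin, carbon monoxide and iron. The inducible HMOX1, a classical NRF2 and BACH1 target, had 201, 185 and 174 CPM in siRCC2 libraries and 125, 127 and 118 CPM in siCtrl libraries. The constitutive HMOX2 had 69.4, 68.3 and 62.1 CPM in siRCC2 libraries, against 33.7, 31.3 and 42.4 CPM in siCtrl libraries. Neither gene's groups overlapped, and HMOX1 was 1.51-fold higher (0.60 ± 0.08, adjusted p = 0.00104) and HMOX2 1.86-fold higher (0.90 ± 0.13, adjusted p = 0.00161). HMOX2 overlaps NMRAL1 on the opposite strand, whose own, separate counts were 64.8% as many as those of HMOX2, with a log2 fold change of -0.10 (adjusted p = 0.506).

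The quinone reductases differed. NQO1, the textbook NRF2 target, had 1576, 1448 and 1275 CPM in siRCC2 libraries and 1279, 1273 and 1282 CPM in siCtrl libraries. The groups overlapped and the change did not pass (0.17 ± 0.08, adjusted p = 0.155), although it did without siRCC2 replicate 3 (0.25, adjusted p = 0.0197). NQO2, a related reductase that uses other hydride donors than NADPH, had 38.8, 35.9 and 31.4 CPM in siRCC2 libraries, against 61.7, 63.3 and 63.2 CPM in siCtrl libraries. Every siRCC2 library was below every siCtrl library, and NQO2 was 1.77-fold lower (-0.83 ± 0.10, adjusted p = 0.000729). OSGIN1, an oxidative stress induced growth inhibitor, had log2 fold change 0.02 ± 0.07, and UGDH, which makes UDP-glucuronic acid, 0.08 ± 0.07. Carbonyl reductase CBR1 varied inside each group, with 175, 349 and 197 CPM in siRCC2 libraries and 148, 255 and 96.2 CPM in siCtrl libraries, and did not pass (0.53 ± 0.39, adjusted p = 0.311). Its paralog CBR3 (-0.01 ± 0.14) and the aldehyde dehydrogenase ALDH3A1 (0.26 ± 0.19) also did not pass. ALDH3A1 was low, at 3.54 ± 0.292 CPM in siRCC2 libraries and 2.96 ± 0.595 CPM in siCtrl libraries (SD, n = 3 each).

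None of the 4 genes that make and reduce glutathione passed the threshold, where 41.8% of all tested genes did. GCLC, the catalytic subunit of the rate-limiting glutamate-cysteine ligase, had 265, 284 and 306 CPM in siRCC2 libraries and 262, 279.7 and 308 CPM in siCtrl libraries, 0.01 ± 0.09 on the log2 scale. GCLM, the modifier subunit, had 65.2, 80.2 and 87.5 CPM in siRCC2 libraries and 99.7, 85.8 and 84.6 CPM in siCtrl libraries (-0.21 ± 0.13, adjusted p = 0.213), with siRCC2 replicate 1 lowest. GSS, glutathione synthetase, had log2 fold change 0.02 ± 0.08. GSR, which reduces oxidised glutathione with NADPH, had 527, 523 and 517 CPM in siRCC2 libraries and 564, 560.2 and 537 CPM in siCtrl libraries. The GSR groups did not overlap, yet the difference was small (-0.08 ± 0.05, adjusted p = 0.252), and it passed with total count scaling (-0.15, adjusted p = 0.031).

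Glutathione peroxidases reduce hydrogen peroxide or lipid peroxides with glutathione. Of the 5, 2 were lower (40.0%) and none was higher, where 21.1% and 20.7% of all tested genes were. GPX4, the enzyme that reduces lipid peroxides in membranes, had 249.7, 212 and 203 CPM in siRCC2 libraries, against 305, 292 and 275 CPM in siCtrl libraries. Its groups did not overlap and it was 1.31-fold lower (-0.39 ± 0.09, adjusted p = 0.0138), a call lost without siRCC2 replicate 2 (0.0992) or siCtrl replicate 1 (0.0544). GPX8, of the endoplasmic reticulum, had 20.7, 23.3 and 12.6 CPM in siRCC2 libraries and 49.3, 31.0 and 38.4 CPM in siCtrl libraries. Here too no libraries overlapped, with GPX8 2.09-fold lower (-1.07 ± 0.26, adjusted p = 0.0147), lost without siCtrl replicate 1 (0.0512). GPX1, the cytosolic enzyme, had 84.3, 79.2 and 36.0 CPM in siRCC2 libraries and 47.1, 45.6 and 45.3 CPM in siCtrl libraries, so that siRCC2 replicate 3 was the lowest of all 6. With all libraries it did not pass (0.53 ± 0.29, adjusted p = 0.184), and without siRCC2 replicate 3 it was higher (0.83, adjusted p = 0.000822). The secreted GPX3 had 38.8, 28.2 and 20.1 CPM in siRCC2 libraries and 17.4, 20.2 and 17.8 CPM in siCtrl libraries (0.65 ± 0.23, adjusted p = 0.0557), past the threshold in DESeq2's Wald test on all 6 libraries (0.67, adjusted p = 0.0198) and without siRCC2 replicate 3 (0.86, adjusted p = 0.00803). GPX2 did not pass (-0.07 ± 0.15).

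In the thioredoxin system, 3 of 5 genes were higher and 1 was lower. Thioredoxins reduce disulfides in proteins and are themselves reduced by thioredoxin reductases with NADPH. TXN, the cytosolic thioredoxin, had 572, 495 and 484 CPM in siRCC2 libraries and 394, 378 and 385 CPM in siCtrl libraries. The mitochondrial TXN2 had 97.5, 85.2 and 79.8 CPM in siRCC2 libraries and 66.0, 69.8 and 61.4 CPM in siCtrl libraries. No siRCC2 library of either gene fell within its siCtrl range, and TXN (0.42 ± 0.08, adjusted p = 0.00497) and TXN2 (0.41 ± 0.10, adjusted p = 0.0141) were higher by 1.34-fold and 1.33-fold. TXN2 was lost without siCtrl replicate 3 (0.0577).

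TXNRD1, the selenium-containing cytosolic reductase, went the other way from its substrate, with 2170.4, 2176 and 2175 CPM in siRCC2 libraries and 2495, 2527 and 2436 CPM in siCtrl libraries. The 3 siRCC2 libraries were nearly equal and all below the siCtrl libraries, a 1.14-fold lower level (-0.19 ± 0.05, adjusted p = 0.0220). RPL18AP3, on the same strand and overlapping its locus, had separate counts that were 22.6% as many as those of TXNRD1, with a log2 fold change of -0.24 (adjusted p = 0.0866). The small TXNRD1 change was lost in 7 of 16 alternatives, at adjusted p of up to 0.193. Among them were DESeq2's Wald test (0.0861) and leaving out siRCC2 replicate 2 (0.193) or siCtrl replicates 1 (0.0894), 2 (0.0839) or 3 (0.068). Mitochondrial TXNRD2 did not pass (-0.10 ± 0.09). SRXN1, the sulfiredoxin that repairs overoxidised peroxiredoxins, had 1647, 1647 and 1501 CPM in siRCC2 libraries and 1365, 1383 and 1235 CPM in siCtrl libraries. It was higher without overlap (0.27 ± 0.07, adjusted p = 0.0216), lost without siRCC2 replicate 2 (0.119) or siCtrl replicates 1 (0.0586) or 3 (0.0899). SRXN1 shares 84.7% of its 50-base stretches with the gene model AL121758.1, which had 1 read in each siRCC2 library and 1, 28 and 1192 reads in siCtrl libraries. Both together had 1598 ± 83.8 CPM in siRCC2 libraries and 1349 ± 45.9 CPM in siCtrl libraries (SD, n = 3 each).

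**Figure D2:**
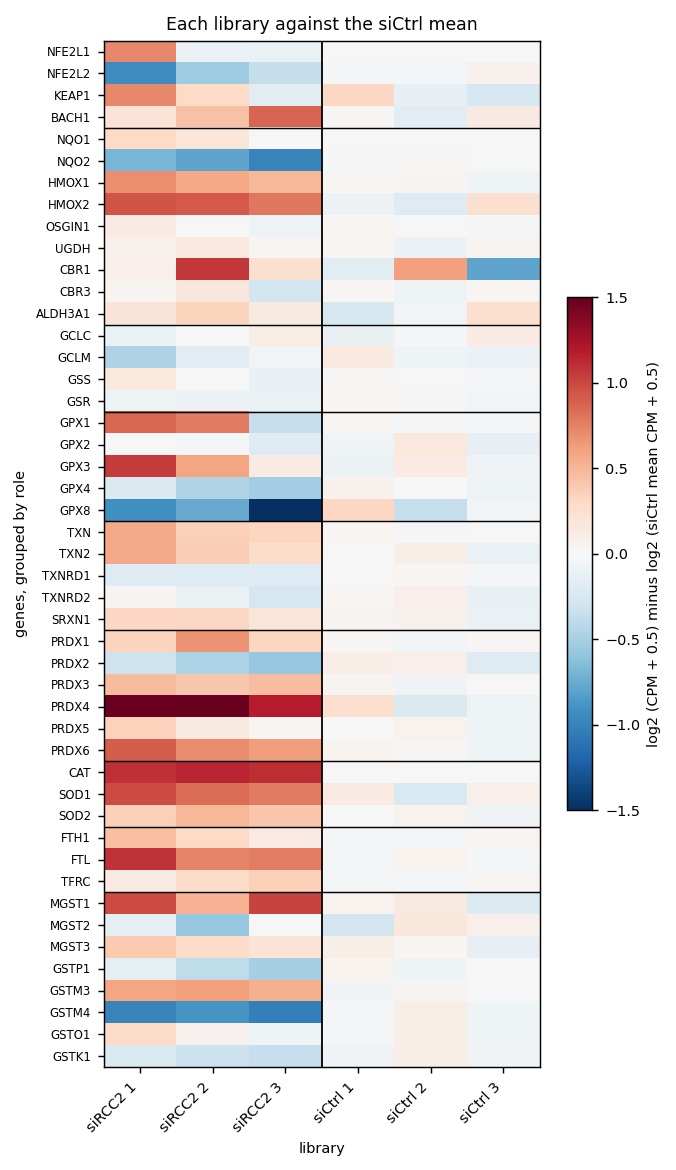
Log2 difference of each library's CPM (plus 0.5) from the siCtrl mean CPM (plus 0.5), by gene and role, in red above and blue below that mean. The siRCC2 libraries form the left 3 columns and the siCtrl libraries the right 3 columns, with red in all 3 siRCC2 columns for CAT, PRDX4, SOD1 and FTL and blue in all 3 for GSTM4 and NQO2.

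Peroxiredoxins remove peroxides with thioredoxin, or in the case of PRDX6 with glutathione. Of the 6, 4 were higher (66.7%) and 1 was lower (16.7%), against 20.7% and 21.1% of all tested genes. PRDX4, of the secretory pathway (chromosome X, 23664262 to 23686399, plus strand), had 114, 114 and 92.6 CPM in siRCC2 libraries, against 48.3, 34.8 and 38.4 CPM in siCtrl libraries. Every siRCC2 library was far above every siCtrl library, and PRDX4 was 2.63-fold higher (1.40 ± 0.15, adjusted p = 0.000467), the largest positive change among the 47 genes. PRDX6 had 389.8, 341 and 322 CPM in siRCC2 libraries and 214, 211 and 198 CPM in siCtrl libraries. PRDX3, the mitochondrial member, had 305, 291 and 303 CPM in siRCC2 libraries and 226, 212 and 221 CPM in siCtrl libraries. Both were higher without overlap, PRDX6 by 1.69-fold (0.76 ± 0.09, adjusted p = 0.00065) and PRDX3 by 1.36-fold (0.45 ± 0.06, adjusted p = 0.00122).

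Cytosolic PRDX1 had 907, 1144 and 896 CPM in siRCC2 libraries and 731, 700.1 and 727 CPM in siCtrl libraries, without overlap (0.45 ± 0.10, adjusted p = 0.0114). PRDX2, its close relative, went down by a like amount, with 131, 117 and 110.2 CPM in siRCC2 libraries and 174, 172 and 143 CPM in siCtrl libraries (-0.45 ± 0.10, adjusted p = 0.0123). PRDX2 was lost without siRCC2 replicate 2 (0.0696). HOOK2, which overlaps it on the same strand, had separate counts 13.3% as many, with a log2 fold change of -0.30 (adjusted p = 0.0626). PRDX5 did not pass (0.18 ± 0.09, adjusted p = 0.155).

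Catalase and the superoxide dismutases with a test were all higher, where 20.7% of all tested genes were. CAT, which splits hydrogen peroxide in peroxisomes (chromosome 11, 34438925 to 34472062, plus strand), had 83.9, 86.5 and 84.0 CPM in siRCC2 libraries and 38.9, 39.0 and 38.6 CPM in siCtrl libraries. It was the tightest of the large changes, 2.18-fold higher (1.13 ± 0.07, adjusted p = 6.81e-05). SOD1, the cytosolic copper-zinc dismutase that turns superoxide into hydrogen peroxide, had 497, 449 and 432 CPM in siRCC2 libraries and 273, 215 and 265 CPM in siCtrl libraries, 1.83-fold higher without overlap (0.87 ± 0.11, adjusted p = 0.000868). SOD2, the mitochondrial manganese enzyme, had 52.6, 57.8 and 54.8 CPM in siRCC2 libraries and 40.9, 42.4 and 39.4 CPM in siCtrl libraries (0.43 ± 0.08, adjusted p = 0.0049). The locus of SOD2 overlaps ACAT2 on the opposite strand, whose counts were 385.5% of those of SOD2 and whose log2 fold change was 0.94, so reads of these genes may not be told apart.

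**Figure D3:**
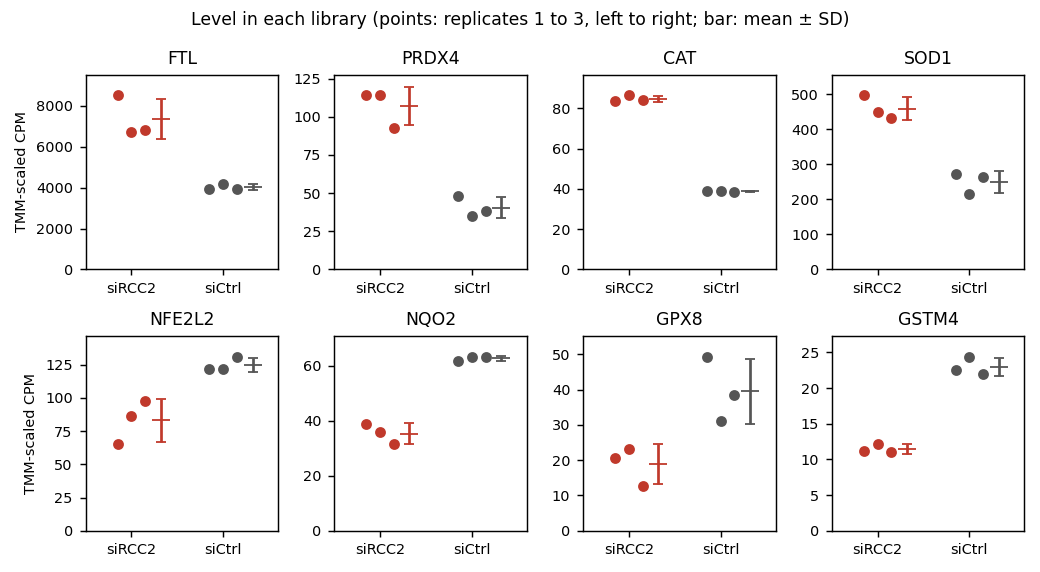
TMM-scaled CPM in each library for 8 genes, with points for replicates 1 to 3, siRCC2 left of siCtrl, and bars for the mean ± SD. FTL, PRDX4, CAT and SOD1 are higher in every siRCC2 library, and NFE2L2, NQO2, GPX8 and GSTM4 are lower in every siRCC2 library, than in any siCtrl library.

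All 3 iron storage and uptake genes were higher, where 20.7% of all tested genes were. FTL, the ferritin light chain that builds the iron storage shell with the heavy chain (chromosome 19, 48965301 to 48966878, plus strand), had 8515, 6737 and 6835 CPM in siRCC2 libraries and 3955, 4185 and 3933 CPM in siCtrl libraries. The groups stood far apart, with FTL 1.83-fold higher (0.87 ± 0.10, adjusted p = 0.000697). Per kb of transcript FTL was also the most abundant of the 48 genes in both groups, at 8385 ± 1138 CPM per kb in siRCC2 libraries and 4583 ± 159 CPM per kb in siCtrl libraries (SD, n = 3 each), followed by FTH1 at 1735 ± 197 CPM per kb in siRCC2 libraries and 1414 ± 28.6 in siCtrl libraries. PRDX1 came next at 796 ± 114 CPM per kb in siRCC2 libraries and 583 ± 13.6 in siCtrl libraries, a level that TXNRD1 in siCtrl libraries (581 ± 10.8) did not differ from beyond its spread.

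Ferritin and transferrin receptor transcripts carry iron-responsive elements, hairpins bound by the proteins of ACO1 and IREB2, with the loop sequence CAGTGN. The letters CNNNNNCAGTGN occur on the sense strand in 15 of the 54 windows of these genes (27.8%; 11 of 37 genes). Over the windows of all genes the share was 10.1%, and a gene can have more than 1 window. Matches after a start, where the RNA made from it could hold them, stood in GPX1, GSTP1, FTL and TXNRD2, at 24, 26, 33 and 14 bases. All other matches, also in TXNRD2, lay before a start, so these shares count letters and not iron-responsive elements. FTH1 and TFRC are not among the 11 genes with a match. Not every gene had a window and sequence beyond the windows was not searched, so both may hold the element elsewhere. The FTL stretch, at 33 bases after the start, is printed because it is the known site, with the match in capitals.
FTL, chr19:48965329-48965358 (+): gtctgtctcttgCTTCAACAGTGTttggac
FTH1, the ferroxidase heavy chain, had 2372, 2137 and 1889 CPM in siRCC2 libraries, against 1723, 1713 and 1778 CPM in siCtrl libraries, a 1.23-fold higher level (0.30 ± 0.09, adjusted p = 0.0324). FTH1 shares 40.4% of its 50-base stretches with other gene models, its pseudogenes foremost. Summed with 24 pseudogenes it had 2798 ± 273 CPM in siRCC2 libraries and 2296 ± 17.8 CPM in siCtrl libraries. The FTH1 call was lost in 8 of 16 alternatives at adjusted p of up to 0.128, among them without siRCC2 replicates 1 (0.0528) or 2 (0.128) and without siCtrl replicates 1 (0.102), 2 (0.1) or 3 (0.0817). TFRC, the transferrin receptor that takes up iron, had 282, 315 and 333 CPM in siRCC2 libraries and 257, 257 and 264 CPM in siCtrl libraries (0.26 ± 0.08, adjusted p = 0.0296). It was lost in 7 of 16 alternatives at adjusted p of up to 0.109, among them without siRCC2 replicates 2 (0.0832) or 3 (0.0575) and without siCtrl replicates 1 (0.0964), 2 (0.0955) or 3 (0.0775).

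Glutathione transferases split evenly, with 3 of 8 higher and 3 lower (37.5% each), against 20.7% and 21.1% of all tested genes. MGST1, a membrane-bound peroxidase and transferase, had 322, 235 and 329.6 CPM in siRCC2 libraries and 169, 179.7 and 142 CPM in siCtrl libraries, 1.81-fold higher (0.85 ± 0.15, adjusted p = 0.00394). It overlaps LMO3 on the opposite strand, whose separate counts were 41.2% as many as those of MGST1, with a log2 fold change of -0.12 (adjusted p = 0.426). GSTM3, a mu class transferase, had 59.3, 60.1 and 56.6 CPM in siRCC2 libraries and 37.8, 40.2 and 39.3 CPM in siCtrl libraries (0.59 ± 0.08, adjusted p = 0.00106). Its neighbour GSTM4 went the other way, with 11.2, 12.2 and 11 CPM in siRCC2 libraries and 22.6, 24.4 and 22.0 CPM in siCtrl libraries (-1.0 ± 0.10, adjusted p = 0.000432). None of these 3 genes had overlapping groups. GSTM4 shares 11.7% of its stretches with GSTM5, GSTM1 and GSTM2, and GSTM1, GSTM2 and GSTM4 summed to 45 ± 5.4 CPM in siRCC2 libraries and 50.1 ± 1.91 CPM in siCtrl libraries. The part of read sharing in the GSTM4 difference was not tested.

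The remaining transferases changed less. MGST3 had 93.4 ± 6.53 CPM in siRCC2 libraries and 76.2 ± 5.51 CPM in siCtrl libraries (SD, n = 3 each; 0.29 ± 0.09, adjusted p = 0.0332). GSTP1, the pi class transferase, had 169, 144 and 133 CPM in siRCC2 libraries and 195, 179 and 188 CPM in siCtrl libraries (-0.33 ± 0.10, adjusted p = 0.0306). GSTK1, a mitochondrial and peroxisomal enzyme, had 67.9, 63.4 and 62.5 CPM in siRCC2 libraries and 76.1, 85.0 and 76.7 CPM in siCtrl libraries (-0.30 ± 0.08, adjusted p = 0.0225). All 3 kept their groups apart, yet MGST3 was lost in 8, GSTP1 in 8 and GSTK1 in 5 of 16 alternatives. Leaving out 1 library lost MGST3 for siRCC2 replicates 1 (0.0649) or 2 (0.098) and siCtrl replicates 1 (0.0533), 2 (0.0845) or 3 (0.116). It lost GSTP1 for siRCC2 replicates 2 (0.162) or 3 (0.0653) and siCtrl replicates 1 (0.0992), 2 (0.059) or 3 (0.0854), and GSTK1 for siRCC2 replicates 2 (0.129) or 3 (0.0535) and siCtrl replicates 2 (0.0849) or 3 (0.0524). MGST2 (-0.24 ± 0.21) and GSTO1 (0.10 ± 0.11) did not pass.

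Of the 28 calls, 13 of 19 higher and 2 of 9 lower were kept in all 16 alternatives other than the stricter threshold of 0.01. The 2 lower ones were NQO2 and GSTM4.

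Genes that neighbour these pathways were taken from 8 lists of 120 genes, 108 of them tested. Of those, 23 were higher (21.3%), 36 were lower (33.3%) and 49 did not pass, with a median of -0.05 on the log2 scale. Of all tested genes, 20.7% were higher and 21.1% lower, and these shares are the background for each list below. The lists were drawn up with results known, so their shares only describe them. The list for cystine import and glutathione use had 6 of 11 lower (54.5%) and none higher, with a median of -0.38. SLC7A11, the cystine carrier of system xc-, had 37.7, 88.5 and 122 CPM in siRCC2 libraries and 204, 186 and 216 CPM in siCtrl libraries. All siRCC2 libraries were lower, with siRCC2 replicate 1 far below the others (-1.29 ± 0.37, adjusted p = 0.0276). This call was lost without siRCC2 replicate 2 (0.0565) or siCtrl replicates 1 (0.069), 2 (0.0591) or 3 (0.075). Its partner SLC3A2 (-0.96 ± 0.08, adjusted p = 0.000157) and CHAC1, which degrades glutathione (-2.21 ± 0.09, adjusted p = 2.76e-05), were also lower.

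**Figure D4:**
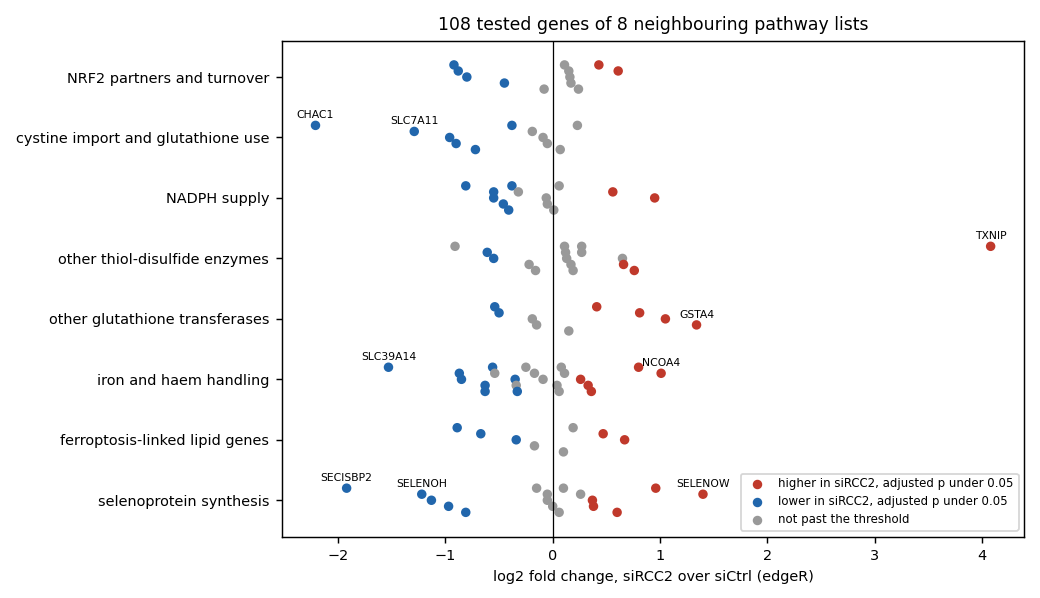
Log2 fold change of siRCC2 over siCtrl for the 108 tested genes of 8 neighbouring lists, 1 point a gene, coloured by call, with names for the genes of the naming rule whose change was beyond 1. TXNIP at 4.08 is far right of the rest, and CHAC1 at -2.21 is the lowest.

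In the NADPH supply, 6 of 13 genes were lower (46.2%) and 2 higher (15.4%), with a median of -0.32. The pentose phosphate enzyme PGD was lower (-0.41 ± 0.09, adjusted p = 0.00878), a call lost without siRCC2 replicate 2 (0.0747), while malic enzyme ME1 was higher (0.95 ± 0.07, adjusted p = 0.000148). Among NRF2 partners and turnover genes, 4 of 12 were lower (33.3%) and 2 higher (16.7%). The small MAF genes MAFF (-0.45 ± 0.08, adjusted p = 0.00498), MAFG (-0.80 ± 0.08, adjusted p = 0.000391) and MAFK (-0.88 ± 0.28, adjusted p = 0.0423) were all lower. MAFK was lost without siRCC2 replicate 1 (0.0673) or siCtrl replicates 1 (0.0974), 2 (0.0967) or 3 (0.0947). SQSTM1, which binds KEAP1, did not pass (-0.08 ± 0.08). Among 16 other thiol-disulfide genes, 3 were higher (18.8%) and 2 lower (12.5%). TXNIP, the inhibitor of thioredoxin, had 35.4, 29.4 and 30 CPM in siRCC2 libraries, against 1.98, 1.94 and 1.65 CPM in siCtrl libraries, a 17.0-fold higher level (4.08 ± 0.14, adjusted p = 2e-05).

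In iron and haem handling, 5 of 22 tested genes were higher (22.7%) and 8 lower (36.4%), with a median of -0.21. NCOA4, which carries ferritin to the lysosome, had 319, 326 and 324 CPM in siRCC2 libraries and 167, 157 and 158 CPM in siCtrl libraries (1.01 ± 0.06, adjusted p = 5.7e-05). ACO1, the iron regulatory protein 1, had 67.6, 71.2 and 71.3 CPM in siRCC2 libraries and 125, 129 and 126 CPM in siCtrl libraries (-0.85 ± 0.06, adjusted p = 0.000138). Both genes had groups far apart. IREB2, the other iron regulatory protein, did not pass (-0.54 ± 0.24, adjusted p = 0.116) except without siRCC2 replicate 3 (-0.79, adjusted p = 0.0269), and the metal importer SLC39A14 was lower (-1.53 ± 0.06, adjusted p = 2e-05).

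Selenoproteins and their synthesis genes had 5 of 17 higher and 5 lower (29.4% each, median 0.0). SELENOW was higher (1.40 ± 0.11) and SECISBP2, which helps read selenocysteine codons, was lower (-1.92 ± 0.17, adjusted p = 0.000247). Other glutathione transferases had 4 of 9 tested genes higher (44.4%), led by GSTA4 (1.34 ± 0.16, adjusted p = 0.000851), and 2 lower (22.2%). Ferroptosis-linked lipid genes had 2 of 8 higher (25.0%) and 3 lower (37.5%), with LPCAT3 higher (0.67 ± 0.09) and AIFM2 lower (-0.67 ± 0.09).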

How the data were processed

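The authors deposited 1 table of whole-number counts per gene for each of the 6 libraries. Per the submitters' processing notes, Bowtie2, RSEM and DESeq2 were used on GRCh38, with no versions. RSEM gives estimated values that share reads among like sequences, so the deposited counts may have been rounded. Per the labels' protocols, RNA was column-extracted and libraries were made with an MGI kit. The sources used here do not give strandedness or read length.

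Genes kept by filterByExpr entered edgeR 4.0.16 under R 4.3.3 (TMM, quasi-likelihood F-test, Benjamini-Hochberg, 0.05). The SE is the log2 fold change over the square root of F. At these depths the biological coefficient of variation was 16.6%, and replicates of 1 group differed by more than counting noise (chi-square per degree of freedom 9.56 to 31.9). Alternatives used limma 3.58.1, DESeq2 1.42.0, other scalings, filters, thresholds and pseudogene sums, a replicate block, and leaving out each library. The sum of SRXN1 with AL121758.1 was added after seeing the data. The script was tested on simulated data. Lengths and sequence came from GENCODE 29 and promoters from RefSeq.

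All 48 genes were named. From each other list, up to 3 genes with the smallest p were named, plus 13 given genes. Some genes of these lists and some cell type markers are not reported here. The members and lists were chosen with earlier results of these data known.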

Additional observations from a re-analysis of the deposited data

How the results depend on the processing

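At a threshold of 0.01 there were 4117 genes called, 12 of the 48 higher and 2 lower. Leaving out each library gave 5112 to 7565 genes called, 13 to 20 higher and 4 to 9 lower, the fewest lower without siRCC2 replicate 2. Fewer samples were then fitted. Other scalings, filters and tools gave 6421 to 7018 genes called, 16 to 20 higher and 7 to 10 lower. Values near 0 changed sign, for which the cause was not tested: CBR3 was 0.00556 with DESeq2 size factors, 0.0052 with the DESeq2 test and 0.00029 with at least 1 CPM in 3 libraries. With upper quartile scaling, total count scaling and all genes with at least 1 read, OSGIN1 was -0.0041, -0.054 and -0.016, and GCLC was -0.012, -0.058 and -0.022. GSS was -0.051 with total count scaling and -0.012 with at least 1 read. Over the fits that leave out 1 library, log2 fold changes ran from -0.11 to 0.39 for NFE2L1, -0.0507 to 0.0639 for OSGIN1, -0.0914 to 0.114 for CBR3, -0.0449 to 0.0733 for GCLC, -0.0673 to 0.0863 for GSS, -0.136 to 0.0181 for GPX2, -0.0127 to 0.183 for GSTO1 and -0.139 to 0.00242 for SQSTM1.

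Same-numbered libraries correlated at 0.077, -0.040 and 0.125, and differently numbered ones at -0.148 to 0.074. Such small values from so few libraries cannot settle whether the numbers pair the samples. Fitted with the replicate block, 6295 genes were called, 19 of the 48 higher and 8 lower. FTH1 (adjusted p = 0.0507) and GSTK1 (0.0511) were lost and CBR1 (0.0419) was gained. Of 3 siRCC2 libraries, replicates 1 and 3 correlated best with their own number. Genes under 1 CPM rest on few reads.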
